A study of Homo sapiens with 18 samples.

Results

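The comparison described here asks where the response to amiloride differed between 2 human myeloma lines, KMS12-BM and JJN3. For each gene it takes the change with amiloride in KMS12-BM (amiloride minus DMSO, on a log2 scale) and subtracts the same change in JJN3. This difference of differences is the interaction. A positive interaction means that the change was more positive in KMS12-BM. Of the 18 libraries of the study, 12 enter it, and of the 57905 genes in the files, 17215 had enough reads to be tested. The genes that moved in opposite directions, with a call in each line, numbered 629.

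The 4 groups were KMS12-BM with DMSO, KMS12-BM with 0.1 mM amiloride, JJN3 with DMSO and JJN3 with 0.4 mM amiloride, with 3 libraries each. Treatment lasted 24 h, and the controls are labelled as untreated (DMSO). RNA was selected for poly(A) tails and sequenced. Each kind of myeloma is represented by 1 established cell line, grown in medium with a smaller share of fetal bovine serum for JJN3 than for the other line, which the labels' protocol calls KMS12M and which is read here as KMS12-BM. Line, dose and serum therefore changed together, and their parts in the interaction cannot be told apart. Whether replicate libraries were grown separately is not stated in the labels. The p-values thus measure only the spread between these libraries, which may be technical.

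Amiloride, used as a diuretic, inhibits the epithelial sodium channel and, at higher concentrations, sodium-proton exchangers. Myeloma cells are malignant plasma cells with a heavy load of secretory protein synthesis, and they depend on the pathways that sense misfolded protein and amino acid supply. One of these is the integrated stress response (ISR). In the ISR, kinases that sense stress phosphorylate the initiation factor eIF2, general translation falls, and the transcription factor ATF4 is made. ATF4 and its partners then raise genes of amino acid uptake and synthesis, tRNA charging, redox balance and, through DDIT3 (CHOP), cell death.

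Each library held 23707695 to 50570234 reads in genes, and 19552 to 21893 genes had at least 1 read. The line labels matched the cyclin D1 and MAF levels that the translocations of these lines are known for. CCND1 was at 830.1 to 1144 CPM (read count scaled by library size) in KMS12-BM with DMSO and at 1.03 to 1.51 CPM in JJN3. MAF was at 0.147 to 0.522 CPM in KMS12-BM and at 734 to 1016 CPM in JJN3. Of 9 plasma cell markers, all tested, the levels of 2 are given here, and these were uneven. The transcription factor IRF4 was at 1117 to 1201 and 842 to 1064 CPM, while the surface marker SDC1 (CD138) was at 13.1 to 13.9 CPM in KMS12-BM and 149 to 171 CPM in JJN3. Of 15 markers of other cell types, 9 had enough reads to be tested, and the interaction was called for CD14 (higher) and CD3E (lower), both at under 2.5 CPM in every library. Mitochondrially encoded genes held 3.86% to 4.25% of the reads in KMS12-BM with DMSO and 0.265% to 0.448% with amiloride. In JJN3 they held 2.06% to 2.61% and 0.709% to 1.03%. When these genes were left out before scaling, 616 of the 629 opposite genes kept both calls.

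More genes were called with amiloride in KMS12-BM, at the lower dose, than in JJN3. A gene is called here at a Benjamini-Hochberg adjusted p under 0.05 over all tested genes, from edgeR's quasi-likelihood test. In KMS12-BM, 5250 genes were called higher (30.5%) and 5503 lower (32%). In JJN3, 2936 were called higher (17.1%) and 3009 lower (17.5%). The interaction was called for 7209 genes, 41.9% of those tested: 3513 were higher (20.4%) and 3696 lower (21.5%). Of the 3513, 1956 were called in KMS12-BM alone as higher, 788 rose in both lines and 336 were called in JJN3 alone as lower. Of the 3696, 2145 were called in KMS12-BM alone as lower, 804 fell in both lines and 313 were called in JJN3 alone as higher. Most of the interaction was therefore a change of unequal size, or a call in 1 line only.

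Genes called in both lines numbered 4273, and 3644 of them (85.3%) moved the same way: 1812 rose in both and 1832 fell in both. The other 629 (14.7%) moved in opposite ways. There were 302 genes that rose in KMS12-BM and fell in JJN3 (1.75% of the tested genes) and 327 that fell in KMS12-BM and rose in JJN3 (1.9%). Calls in both lines with opposite signs fix the sign of the interaction, so for these genes it is given below as a description, without a test. The changes were moderate. The median log2 change of the 302 genes was 0.63 in KMS12-BM and -0.46 in JJN3, and that of the 327 was -0.68 and 0.47. A change of at least 1.5-fold in both lines was found for 76 and 91 genes, and of at least 2-fold for 19 and 27. The CPM ranges of amiloride and DMSO did not overlap in either line for 283 of the 302 and 302 of the 327.

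**Figure D1:**
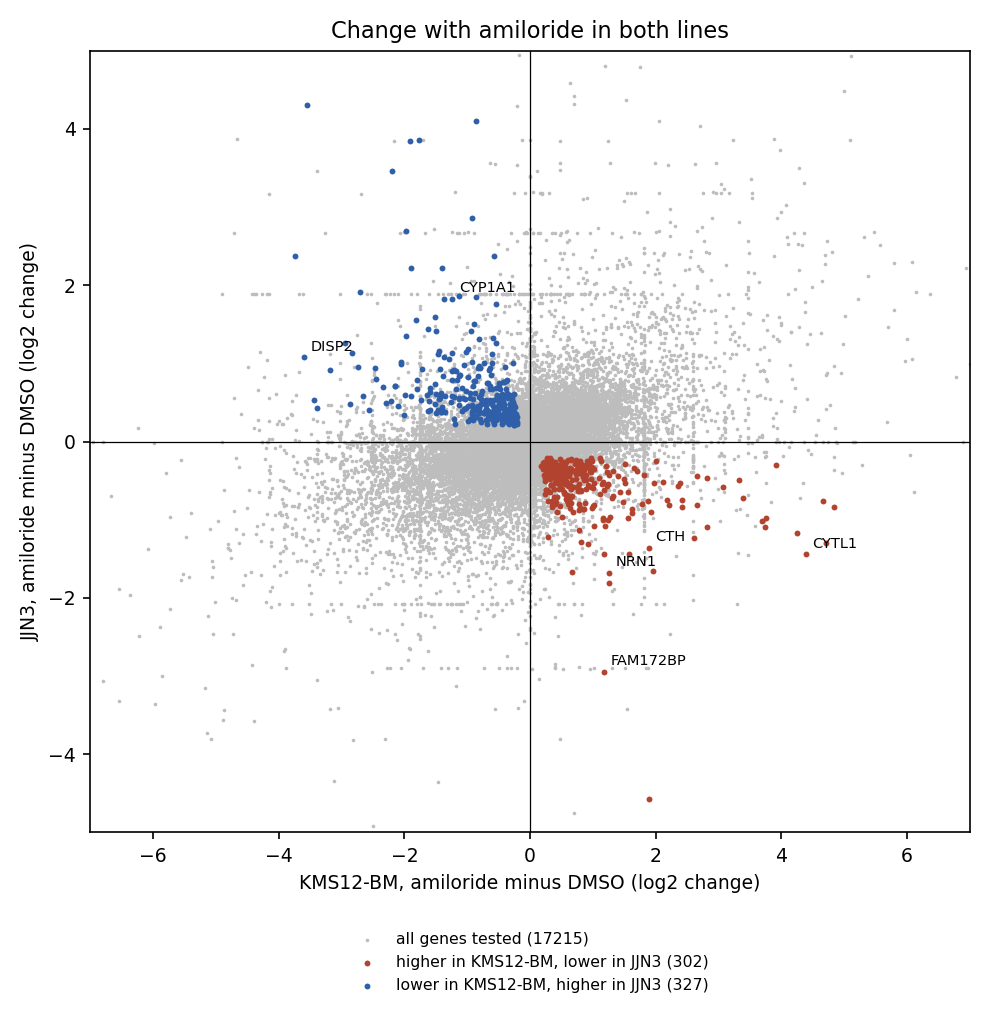
Log2 change with amiloride in KMS12-BM (x axis, 0.1 mM) against that in JJN3 (y axis, 0.4 mM) for the 17215 genes tested, with 1 point per gene and 12 genes outside the axes. Red points (302) rose in KMS12-BM and fell in JJN3, and blue points (327) fell in KMS12-BM and rose in JJN3. Rows and columns of grey points are genes with few reads in 1 line.

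The opposite calls depended most on 2 of the JJN3 DMSO libraries. Without JJN3 DMSO replicate 2 the counts were 194 and 199, and without replicate 3 they were 203 and 196. Both calls held for 253 of the 629 genes in each of the 12 fits that left out 1 library. Some genes lay close to the threshold. C1orf74 (log2 -0.54 and 0.28 in KMS12-BM and JJN3), RSU1 (-0.29 and 0.40) and BCAP29 (-0.30 and 0.27) lay just inside, with a larger adjusted p of 0.0495 to 0.0498. MARCHF8 (0.86 and -0.25), TTC38 (-0.67 and 0.31) and GAB2 (0.80 and -0.51) lay just outside, at 0.0502 to 0.0503.

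The largest opposite changes with a rise in KMS12-BM included those of the enzymes CTH and ASS1 and the growth factor VEGFA. For each direction the 12 genes with the largest smaller change were taken, among those with a mean of at least 5 CPM and ranges apart in both lines. CTH, the cystathionine gamma-lyase that makes cysteine (chr1:70876901-70905534, GRCh37), was at 4.25, 6.65 and 6.96 CPM in the KMS12-BM DMSO libraries and at 21.6, 22.6 and 22.8 CPM with amiloride. Here and below, DMSO is given before amiloride and KMS12-BM before JJN3. In JJN3 it was at 9.497, 7.66 and 8.38 CPM with DMSO and at 3.52, 3.56 and 2.91 CPM with amiloride. It was high in all 3 amiloride libraries of KMS12-BM and low in all 3 of JJN3, as the choice requires. The log2 change (± SE) was 1.90 ± 0.16 in KMS12-BM (adjusted p = 1.19e-07) and -1.36 ± 0.17 in JJN3 (adjusted p = 6.48e-05), which gives an interaction of 3.25 ± 0.23.

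ASS1, the argininosuccinate synthase of arginine synthesis, rose 2.98-fold in KMS12-BM and fell 2.71-fold in JJN3. It was at 76.1, 181 and 178 CPM with DMSO and 440.2, 444 and 415 CPM with amiloride in KMS12-BM, where the first DMSO library was the lowest. In JJN3, where it was scarcer, it was at 8.49, 9.003 and 8.95 CPM with DMSO and 3.73, 3.58 and 2.56 CPM with amiloride. The cystine importer SLC7A11 was at 6.87, 8.93 and 8.55 CPM and 18.6, 19.4 and 16.4 CPM in KMS12-BM, and at 12.6, 14.4 and 11.2 CPM and 5.69, 7.85 and 5.43 CPM in JJN3. Its interaction was 2.17 ± 0.22. VEGFA, the angiogenic growth factor, was at 55.96 to 60.8 CPM with DMSO and 110.4 to 121 CPM with amiloride in KMS12-BM, and at 212 to 317 CPM and 113 to 143 CPM in JJN3. The 2 lines started at different VEGFA levels and ended with amiloride at ranges that overlapped between them.

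Further genes of this direction were CCNG2, a cyclin linked to cell cycle arrest, with log2 changes of 1.62 ± 0.17 in KMS12-BM and -0.92 ± 0.17 in JJN3, and NRN1, a GPI-anchored neuritin, with 1.26 ± 0.13 and -1.68 ± 0.21. C1R, a protease of the classical complement pathway, changed by 1.56 ± 0.22 and -0.98 ± 0.15, and the zinc finger gene ZFP69B by 0.93 ± 0.11 and -1.30 ± 0.13. In JJN3, NRN1 had 146 reads with DMSO and 54 with amiloride over the libraries of each group. In KMS12-BM, C1R had 84 and 231. The long noncoding RNA HCP5 of the MHC class I region was at 0.168, 0.319 and 0.1404 CPM with DMSO and 0.662, 1.41 and 1.84 CPM with amiloride in KMS12-BM, against 23.9, 25.1 and 26.9 CPM and 6.61, 8.18 and 17.1 CPM in JJN3. The third JJN3 amiloride library lay nearer to the controls than the other two.

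For CYTL1, TP73 and FAM172BP 1 side rested on few reads. The cytokine-like gene CYTL1 had 1 read over the 3 KMS12-BM DMSO libraries and 28 with amiloride, a 30.8-fold ratio with a 95% counting interval of 5.10 to 1261. In JJN3 it fell from between 14.1 and 17.1 CPM to between 5.27 and 6.196 CPM. TP73, a transcription factor gene, had 1 and 17 reads in KMS12-BM, an 18.7-fold ratio with an interval of 2.93 to 783, and fell from between 23.7 and 26.5 CPM to between 11.2 and 13.6 CPM in JJN3. The processed pseudogene FAM172BP had 28 reads with DMSO and 4 with amiloride in JJN3, and its reads may come in part from the parent gene. Intervals cover counting error only, since copies of a molecule made by PCR cannot be told apart in these counts.

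The genes that fell in KMS12-BM and rose in JJN3 included enzymes of xenobiotic and redox metabolism. CYP1A1, the cytochrome P450 that the aryl hydrocarbon receptor induces (chr15:75011883-75017877), was at 14.97, 16.1 and 17.1 CPM in KMS12-BM with DMSO and 7.001, 6.68 and 6.81 CPM with amiloride. In JJN3 it was at 1.26, 1.125 and 1.64 CPM with DMSO and 4.98, 5.28 and 3.94 CPM with amiloride. By the choice of genes, all 3 amiloride libraries lay below the controls in KMS12-BM and above them in JJN3. The log2 changes were -1.24 ± 0.14 (adjusted p = 1.74e-06) and 1.83 ± 0.17 (adjusted p = 7.64e-06). NQO1, a quinone reductase and classical NRF2 target, was at 7.503 to 9.65 CPM with DMSO and 2.86 to 3.88 CPM with amiloride in KMS12-BM, and at 17.04 to 26.3 CPM and 34.99 to 40.9 CPM in JJN3. The interaction of NQO1 was -2.14 ± 0.24.

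DISP2, a relative of the hedgehog release factor dispatched, fell 12.1-fold in KMS12-BM, from between 23.1 and 26.1 CPM to between 1.61 and 2.44 CPM, and rose 2.12-fold in JJN3, from between 0.246 and 0.576 CPM to between 0.795 and 0.932 CPM. TPCN1, a cation channel of endosomes and lysosomes, changed by -0.84 ± 0.12 in KMS12-BM and 0.84 ± 0.12 in JJN3. DHRS1, a short-chain dehydrogenase, changed by -1.39 ± 0.13 and 0.83 ± 0.13, and the aminoacylase ACY3 by -1.05 ± 0.12 and 0.98 ± 0.29. In JJN3, ACY3 rested on few reads, 27 with DMSO and 64 with amiloride over the libraries of each group. EME2, a partner of the endonuclease MUS81, changed by -1.13 ± 0.28 and 0.84 ± 0.28, with the first KMS12-BM amiloride library at 14.1 CPM and the other two at 7.47 and 5.62 CPM. ATP6V0E2-AS1 changed by -1.71 ± 0.18 and 0.93 ± 0.25, with 75 and 171 reads in JJN3. It is an antisense transcript, and since the strand setting of the counting is not given in the sources used here, its reads may include those of its partner gene. IPO5P1 (-1.37 and 1.08) and RBMS1P1 (-0.99 and 0.83) are processed pseudogenes and may share reads with their parents.

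The cadherin CDH8 fell from between 51.8 and 54.8 CPM to between 28.2 and 29.4 CPM in KMS12-BM, and JJN3 had 3 reads with DMSO and 14 with amiloride, a 4.12-fold ratio with a 95% counting interval of 1.15 to 22.3. Of the 24 genes, 18 kept both calls in each fit that left out 1 library. The exceptions included HCP5, CDH8, EME2, ACY3 and ATP6V0E2-AS1. HCP5 lost a call without JJN3 amiloride replicate 2, ATP6V0E2-AS1 without JJN3 DMSO replicate 2, and ACY3 without JJN3 DMSO replicate 2 or JJN3 amiloride replicate 2. CDH8 lost one without any JJN3 library but amiloride replicate 1, and EME2 without KMS12-BM DMSO replicate 2 or any JJN3 library but amiloride replicate 2. With a GC trend removed, EME2 lost the call in KMS12-BM (adjusted p = 0.0671).

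**Figure D2:**
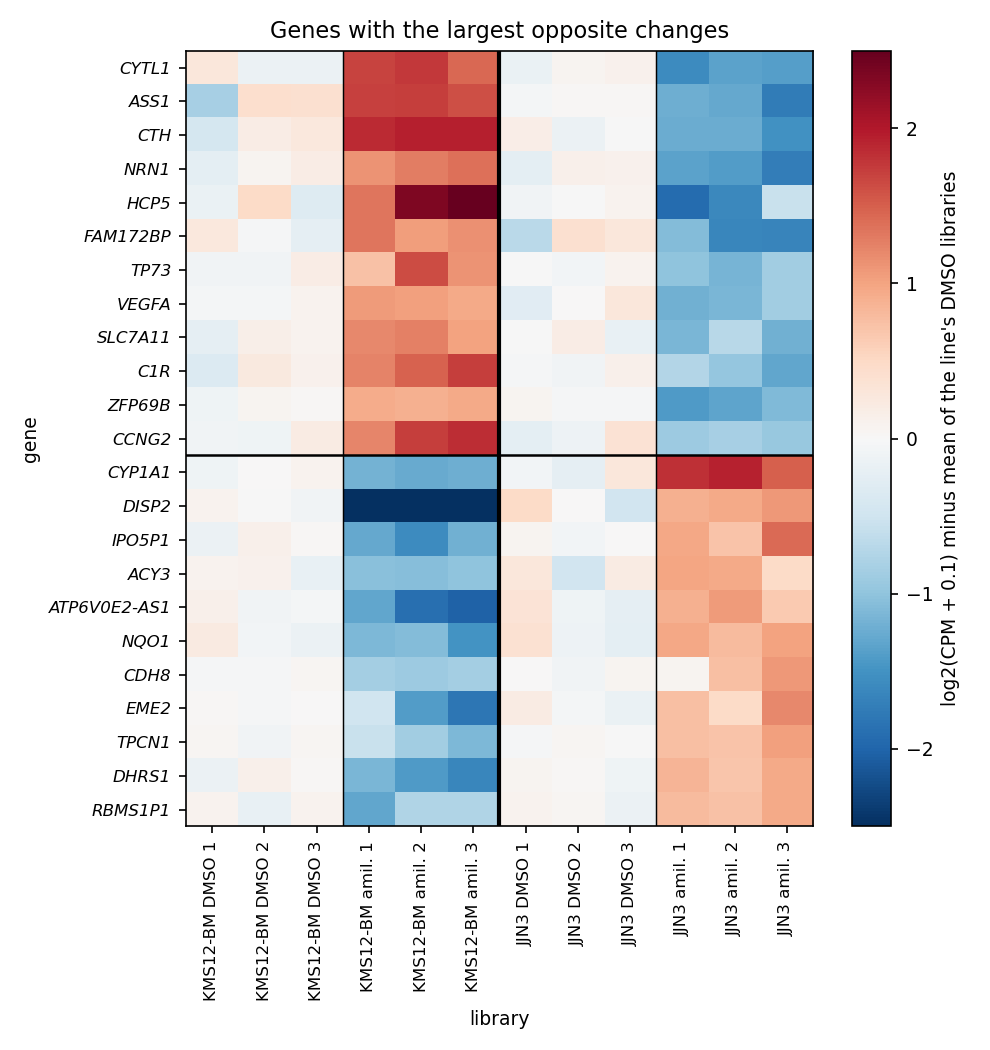
Per-library values of 23 of the genes with the largest opposite changes: log2(CPM + 0.1) minus the mean of the same line's 3 DMSO libraries, with colours limited to 2.5 either way. Columns are the 12 libraries, split by line and treatment, and rows are the 12 genes that rose in KMS12-BM and fell in JJN3 (top) and 11 with the signs exchanged (bottom). Amiloride columns of the 2 lines carry opposite colours in each row, faint for CDH8 in the first JJN3 amiloride library. The opposite colours follow from the choice of genes.

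Among called genes with a symbol and a mean of at least 5 CPM, the 5 largest interactions each way included genes with almost no reads in 1 of the groups. GPAT3, an acyltransferase of glycerolipid synthesis, had 0 reads in the 3 KMS12-BM DMSO libraries and 161 with amiloride, at least 59.1-fold higher against a floor of 3 reads over the group. In JJN3 it was at 10.9 to 12.2 CPM with DMSO and 7.65 to 8.84 CPM with amiloride (log2 -0.48 ± 0.20, adjusted p = 0.0827). The sterol transporter NPC1L1 rose in KMS12-BM from between 0.0981 and 0.234 CPM to between 16.7 and 25.4 CPM, and had 5 and 16 reads in JJN3 (interaction 5.71 ± 1.08, adjusted p = 0.000686). HSPA12A, a distant HSP70 relative, belonged to the opposite genes: it had 0 and 11 reads in KMS12-BM, at least 4.04-fold higher, and fell from between 23.1 and 25.6 CPM to between 12.4 and 15.3 CPM in JJN3.

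On the negative side, TMEM37 fell in KMS12-BM from between 1.99 and 3.25 CPM to between 0 and 0.0764 CPM and was at 23.1 to 28.5 CPM and 24.9 to 25.7 CPM in JJN3 (interaction -5.96 ± 0.44, adjusted p = 3.67e-07). RPP25, a subunit of RNase P and RNase MRP, fell from between 0.804 and 1.003 CPM to between 0 and 0.0509 CPM in KMS12-BM, against 8.74 to 9.41 CPM and 10.3 to 12.6 CPM in JJN3 (adjusted p = 6.23e-07). The adaptor gene SLA2 fell from between 86.9 and 88.6 CPM to between 4.09 and 8.58 CPM in KMS12-BM and had 4 and 9 reads in JJN3. SPI1, the myeloid and B cell factor PU.1, was at 12.4 to 19.1 CPM and 10.2 to 18.4 CPM in KMS12-BM, and had 0 and 11 reads in JJN3, at least 3.23-fold higher. The SPI1 interaction was not called without JJN3 DMSO replicate 2 (adjusted p = 0.0539), nor that of SLA2 without JJN3 amiloride replicate 2 (adjusted p = 0.0688).

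To see which processes differed, 32 gene lists were read by their counts of calls and their medians, set against all tested genes, where the median interaction was near 0 (-0.0019) and 20.4% of genes were called higher and 21.5% lower. The lists at the positive end were the histones, ISR regulators and amino acid synthesis. Those at the negative end were DNA replication, cholesterol synthesis and, apart from the lists plotted, the mitochondrially encoded genes. The place of the histones rests on 14 tested genes of 26 listed. Without a filter on reads 16 were tested, and their median of 1.05 lay below that of the ISR regulators (1.255).

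**Figure D3:**
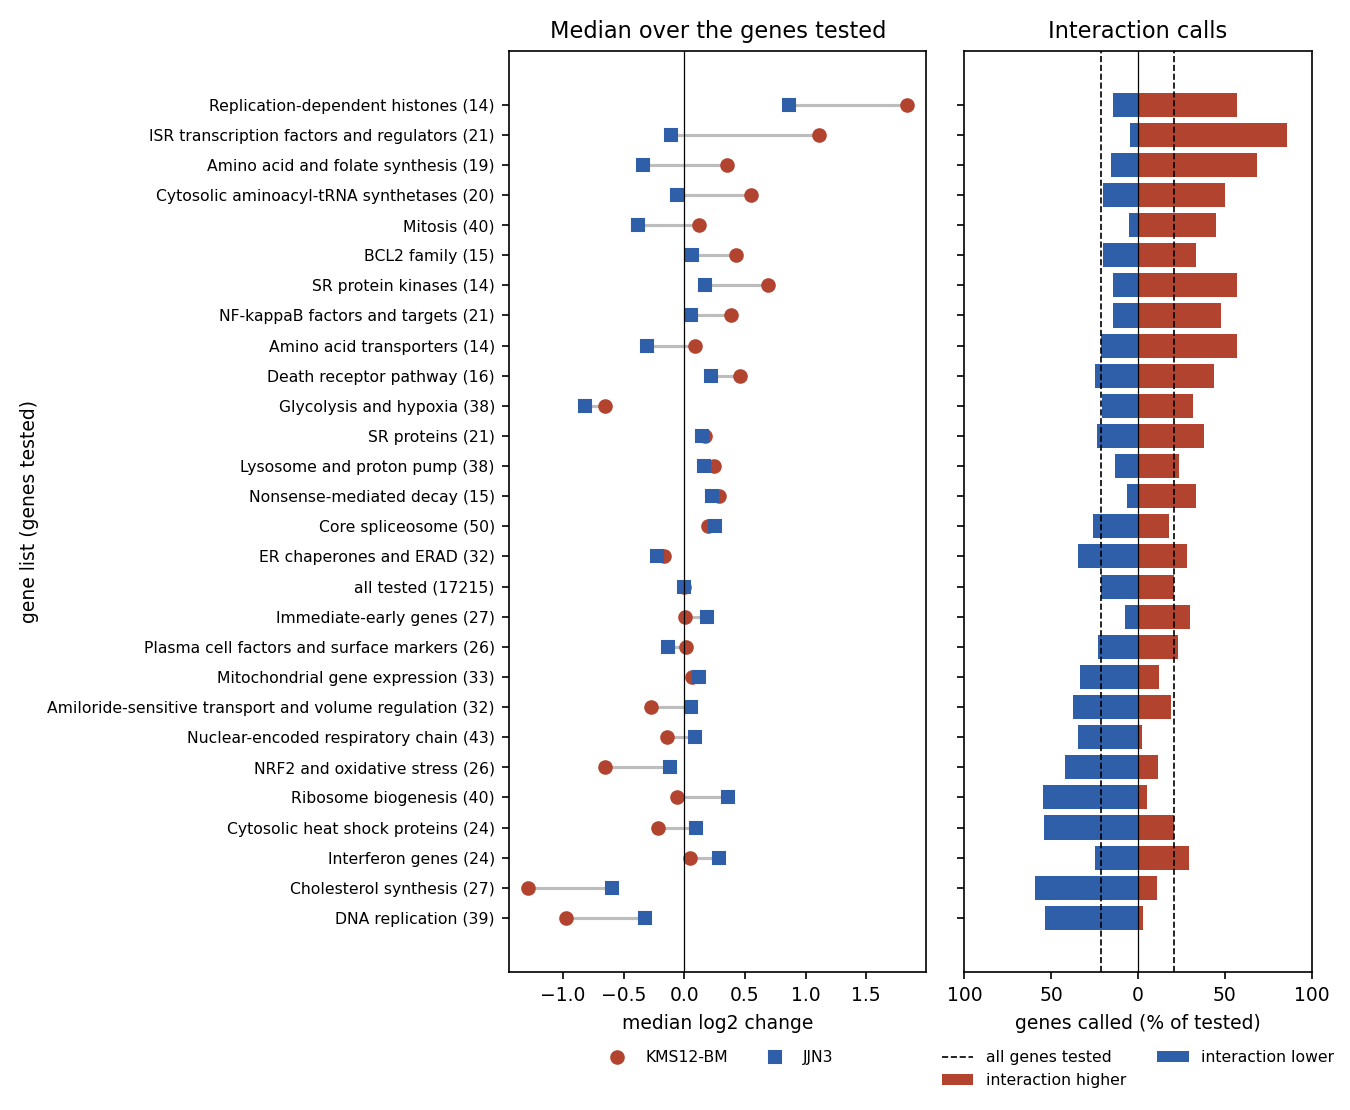
Gene lists ordered by median interaction. The left panel shows the median log2 change with amiloride in KMS12-BM (red circles) and JJN3 (blue squares), and the right panel the share of each list's tested genes called higher (red) or lower (blue) in the interaction, with dashed lines at 20.4% and 21.5% for all tested genes. Medians of ISR regulators (1.11 and -0.11), amino acid synthesis (0.35 and -0.34) and mitosis (0.12 and -0.38) lie on opposite sides of 0.

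ISR transcription factors and regulators rose in KMS12-BM, and more of them fell than rose in JJN3. Of 21 tested, 17 were called higher in KMS12-BM and 1 lower, while in JJN3 3 were higher and 9 lower. The interaction was called higher for 18 and lower for 1, with a median of 1.32. Opposite changes were called for STC2, SESN2, ERN1, NFE2L1, ATF3 and JDP2, and with exchanged signs for EIF2AK2, the kinase PKR that responds to double-stranded RNA. STC2, a secreted glycoprotein induced by ER stress, was at 43.9, 41.4 and 45.6 CPM in KMS12-BM with DMSO and 242, 219 and 221 CPM with amiloride. In JJN3 it was at 87.3, 78.5 and 79.01 CPM and 60.99, 56.4 and 52.2 CPM, so that it rose 5.21-fold in KMS12-BM and fell 1.44-fold in JJN3. SESN2, a leucine sensor that restrains mTORC1, changed by 1.24 ± 0.12 and -0.55 ± 0.11, and ERN1, the ER stress sensor IRE1, by 0.53 ± 0.11 and -0.51 ± 0.11.

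The transcription factors downstream of ATF4 did not all reverse. DDIT3 (CHOP) was at 19.8, 17.1 and 19.1 CPM and 136, 182 and 165 CPM in KMS12-BM, and at 5.32, 6.31 and 7.35 CPM and 6.61, 7.77 and 8.56 CPM in JJN3. It rose 8.62-fold in KMS12-BM, while the JJN3 change of 0.29 ± 0.14 was not called (adjusted p = 0.144), and the interaction was 2.82 ± 0.19 (adjusted p = 2.08e-07). TRIB3, a pseudokinase induced by CHOP, showed 1.84 ± 0.08 in KMS12-BM and -0.05 ± 0.08 in JJN3 (interaction adjusted p = 6.81e-08). ATF3, a stress factor of the same family, was at 4.29, 4.44 and 4.79 CPM and 16.3, 13.3 and 14.4 CPM in KMS12-BM, and at 11.4, 10.6 and 12.8 CPM and 9.25, 10.2 and 7.27 CPM in JJN3, where the fall was small (adjusted p = 0.0438). Without JJN3 DMSO replicate 2 or JJN3 amiloride replicate 3, the list held 3 genes higher in KMS12-BM and lower in JJN3 in place of 6. STC2, SESN2 and ERN1 kept both calls in all 12 such fits, ATF3 in 5 of 12 and EIF2AK2 in 6 of 12. With a GC trend removed, NFE2L1 and EIF2AK2 lost the call in JJN3 (adjusted p = 0.115 and 0.0642).

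ATF4 with a C/EBP partner binds the element TGATGNAA (N, any base), and the promoters of the ISR lists were searched for it on both strands, from 250 bases before to 50 after the start. It was found in 15 of 61 promoters of the 4 lists of ISR regulators, amino acid synthesis, transporters and tRNA synthetases (24.6%), against 185 of 11210 promoters of all tested genes (1.65%). Of the 11 promoters of list genes that rose in KMS12-BM and fell in JJN3, 2 held it. They are printed here 5′ to 3′ on the gene's strand, from RefSeq on GRCh38.p14 (the counts are on hg19), with the match in capitals. The element of CARS1 (chr11:3057374-3057673, minus strand) is read on the reverse strand and begins 2 bases before the start, and that of ATF3 (chr1:212565157-212565456, plus strand) begins 191 bases before it. A match is a description and not a shown site. The lists were written from textbook knowledge of these pathways, so the share of 24.6% describes the lists and not the response to amiloride.
CARS1: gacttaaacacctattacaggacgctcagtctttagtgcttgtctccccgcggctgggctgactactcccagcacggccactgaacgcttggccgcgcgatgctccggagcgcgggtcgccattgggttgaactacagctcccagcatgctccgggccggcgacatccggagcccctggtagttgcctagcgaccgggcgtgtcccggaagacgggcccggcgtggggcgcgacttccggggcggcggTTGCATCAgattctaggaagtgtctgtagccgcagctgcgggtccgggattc
ATF3: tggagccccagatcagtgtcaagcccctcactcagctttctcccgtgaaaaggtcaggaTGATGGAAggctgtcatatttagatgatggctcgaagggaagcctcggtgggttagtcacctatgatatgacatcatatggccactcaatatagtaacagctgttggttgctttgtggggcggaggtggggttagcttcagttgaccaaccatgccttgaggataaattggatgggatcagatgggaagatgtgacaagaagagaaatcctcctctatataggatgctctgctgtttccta

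CARS1, the cysteinyl-tRNA synthetase, was at 49.6, 52.01 and 53.2 CPM in KMS12-BM with DMSO and 120.1, 176 and 159.5 CPM with amiloride, and at 54.3, 54.8 and 50.5 CPM and 35.5, 36.7 and 30 CPM in JJN3. It rose 2.94-fold and fell 1.56-fold, with no overlap of ranges, and kept both calls in all 12 fits without 1 library. Other cytosolic tRNA synthetases rose in KMS12-BM with no call in JJN3. SARS1 showed 2.16 ± 0.11 in KMS12-BM and -0.05 ± 0.10 in JJN3, and WARS1 showed 0.88 ± 0.08 and -0.13 ± 0.08, with interaction adjusted p of 1.55e-07 and 1.07e-05. Of 20 synthetases, 12 were called higher and 5 lower in KMS12-BM, 4 higher and 1 lower in JJN3, and 10 higher and 4 lower in the interaction (median 0.46). HARS1, the histidyl-tRNA synthetase, moved the other way, with -0.82 ± 0.10 in KMS12-BM and 0.37 ± 0.10 in JJN3, opposite calls that were not both kept without JJN3 DMSO replicate 3.

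Amino acid and folate synthesis showed the same split. Of 19 genes, 9 rose and 4 fell in KMS12-BM, 1 rose and 9 fell in JJN3, and the interaction was higher for 13 and lower for 3, with a median of 0.93. Beside CTH, 3 enzymes were called in opposite directions. ALDH1L2, the mitochondrial 10-formyltetrahydrofolate dehydrogenase, was at 19.6, 27.2 and 26.4 CPM and 42.3, 36.9 and 37.4 CPM in KMS12-BM, and at 81.8, 81.96 and 64.6 CPM and 22.3, 28.5 and 21.2 CPM in JJN3. Its log2 change was 0.67 ± 0.14 in KMS12-BM and -1.66 ± 0.15 in JJN3, with no overlap of ranges in either line. GPT2, the mitochondrial alanine aminotransferase, changed by 0.84 ± 0.10 and -0.86 ± 0.10, and PSAT1, an aminotransferase of serine synthesis, by 0.65 ± 0.15 and -0.79 ± 0.16. PSPH, the last enzyme of serine synthesis, rose in KMS12-BM (1.32 ± 0.10) and showed -0.15 ± 0.10 in JJN3 (interaction adjusted p = 1.69e-06). All 4 opposite enzymes kept both calls in each of the 12 fits without 1 library.

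Among 14 amino acid transporters the interaction was higher for 8 and lower for 3. SLC6A9, a glycine transporter, was at 5.33, 5.54 and 7.26 CPM and 33.9, 31.3 and 28.5 CPM in KMS12-BM, and at 17.2, 19.6 and 14.1 CPM and 10.8, 10.9 and 12.6 CPM in JJN3, the widest opposite change of the list (2.94 ± 0.21). SLC38A2, a neutral amino acid carrier that responds to amino acid starvation, changed by 0.84 ± 0.11 and -0.45 ± 0.11. SLC3A2, the heavy chain that pairs with SLC7A11, rose 4.28-fold in KMS12-BM and showed -0.03 ± 0.10 in JJN3 (adjusted p = 0.885). Against this run, the glutamine and serine carrier SLC38A5 fell in KMS12-BM from between 127 and 168 CPM to between 27.6 and 33.3 CPM and showed -0.12 ± 0.12 in JJN3 (interaction -2.20 ± 0.17, adjusted p = 4.61e-07). SLC7A11, SLC6A9 and SLC38A2 kept both calls in all 12 fits without 1 library.

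**Figure D4:**
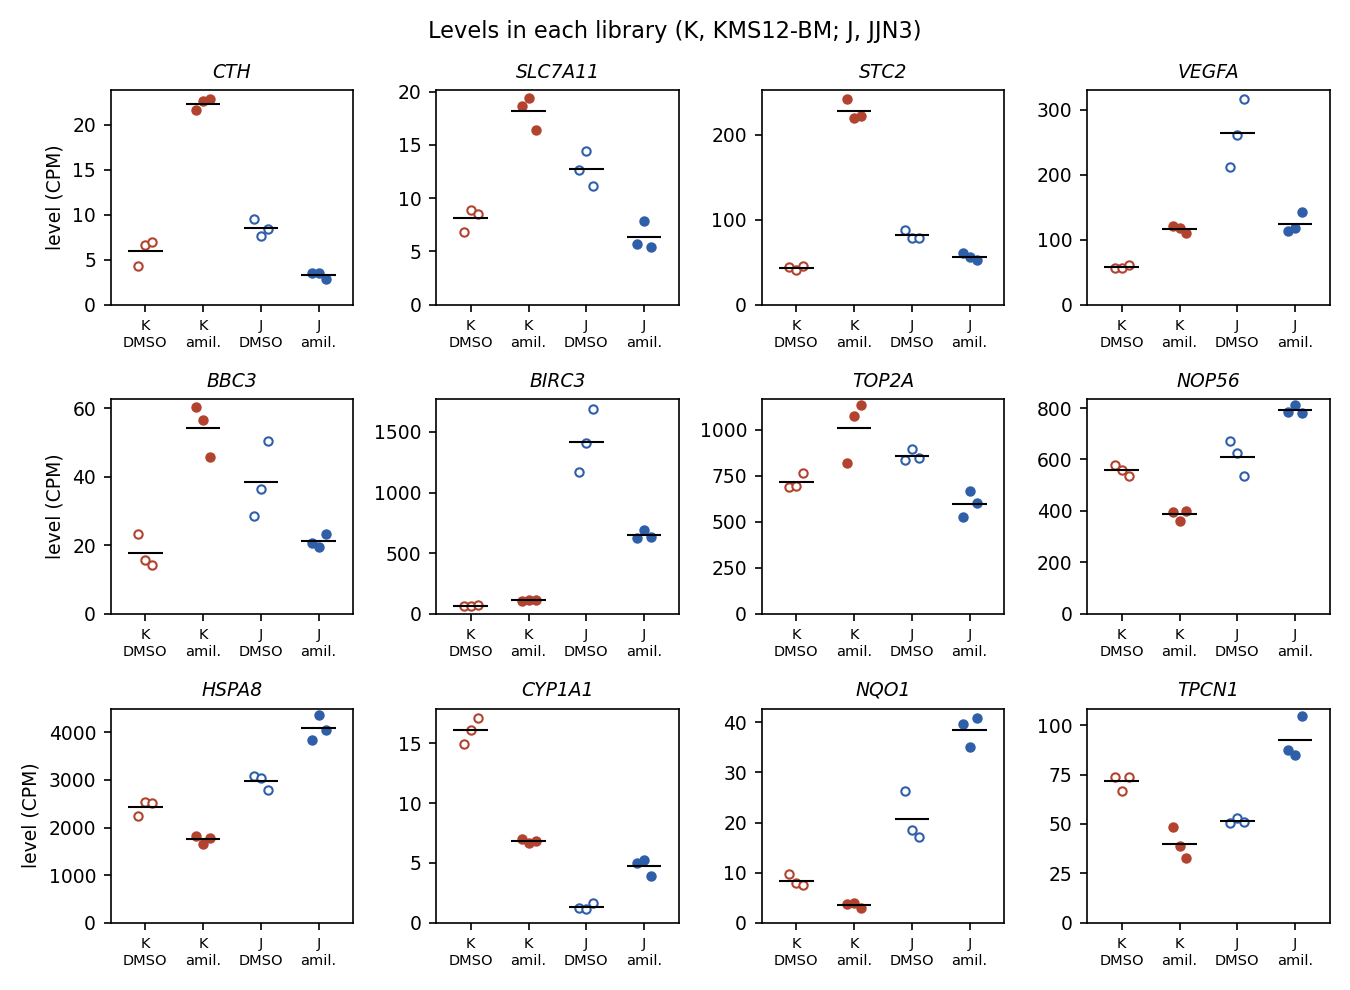
Levels (CPM, linear axes from 0) in each of the 12 libraries for 12 genes called in opposite directions, with 3 libraries per group and bars at the group means. Red points are KMS12-BM, blue points JJN3, open points DMSO and filled points amiloride. From CTH to TOP2A the filled points lie above the open ones in KMS12-BM and below them in JJN3, and from NOP56 to TPCN1 the order is exchanged.

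Of 21 NF-kappaB genes tested, BIRC3, TNFAIP3 and TNIP1 rose in KMS12-BM and fell in JJN3. NF-kappaB is a transcription factor family that sustains many myelomas, and its targets include its own brakes. BIRC3 (cIAP2), a ubiquitin ligase that restrains cell death and the alternative pathway, was at 61.7, 63.1 and 70.4 CPM and 102, 117 and 116 CPM in KMS12-BM, and at 1168, 1407 and 1686 CPM and 626, 688 and 637 CPM in JJN3. TNFAIP3 (A20), a ubiquitin-editing enzyme that ends the signal, was at 30.6, 22.6 and 26.7 CPM and 47.1, 53.4 and 58.5 CPM in KMS12-BM, and at 406, 497 and 619 CPM and 269, 293 and 301 CPM in JJN3. Neither gene's ranges overlapped between amiloride and DMSO in a line. The log2 changes were 0.78 ± 0.11 and -1.13 ± 0.11 for BIRC3 and 0.99 ± 0.15 and -0.82 ± 0.14 for TNFAIP3, and those of TNIP1, the A20 partner, were 0.74 ± 0.10 and -0.35 ± 0.10. TNIP1 was no longer opposite without JJN3 DMSO replicate 1 or JJN3 amiloride replicate 1, and with a GC trend removed its JJN3 call was lost (adjusted p = 0.0923).

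No other member of the NF-kappaB list was opposite. Of 21 tested, 12 rose and 4 fell in KMS12-BM, 3 rose and 6 fell in JJN3, and the interaction was higher for 10 and lower for 3 (median 0.35). CYLD, a deubiquitinase that opposes the pathway, rose in both lines, with 1.90 ± 0.08 in KMS12-BM and 0.53 ± 0.07 in JJN3. NFKBIE, an inhibitor protein, rose in KMS12-BM (1.55 ± 0.12) with 0.20 ± 0.12 in JJN3 (adjusted p = 0.194). DUSP5 and NR4A1, which growth factor signals induce, were opposite among 27 immediate-early genes: 0.67 ± 0.12 and -0.70 ± 0.12 for the nuclear ERK phosphatase DUSP5, and 0.62 ± 0.15 and -0.69 ± 0.20 for the orphan receptor NR4A1. In that list 8 genes were higher and 2 lower in the interaction, and its median was -0.09. Leaving out 1 library gave medians of -0.31 to 0.14, and with a GC trend removed the median was 0.36, so the list as a whole had no stable direction.

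Genes that promote and oppose cell death moved together in part. BBC3, the pro-apoptotic BH3-only protein PUMA, was at 23.4, 15.8 and 14.1 CPM and 60.3, 56.6 and 45.8 CPM in KMS12-BM, and at 28.6, 36.4 and 50.5 CPM and 20.8, 19.5 and 23.3 CPM in JJN3. It rose 3.07-fold and fell 1.81-fold, and kept both calls in all 12 fits without 1 library. The anti-apoptotic BCL2 moved the same way, with 0.90 ± 0.08 and -0.24 ± 0.08, and it was no longer opposite without any of 4 libraries: JJN3 DMSO replicates 2 and 3 and amiloride replicates 2 and 3. BCL2L11 (BIM) rose in KMS12-BM from between 60.1 and 72.8 CPM to between 149.9 and 162 CPM and showed -0.10 ± 0.09 in JJN3 (interaction adjusted p = 2.07e-06). CASP8, the initiator caspase of death receptors, was opposite the other way, at 112, 116 and 114 CPM and 91.2, 93.96 and 95.5 CPM in KMS12-BM and 67.1, 62.6 and 65.2 CPM and 83.6, 86.3 and 98.6 CPM in JJN3. The death receptor FAS rose in KMS12-BM (1.501 ± 0.11) and showed 0.27 ± 0.10 in JJN3 (adjusted p = 0.0586), and the adaptor TRADD fell in both lines, with -4.11 ± 0.21 and -1.11 ± 0.14. Of 15 BCL2 family genes the interaction was higher for 5 and lower for 3, and of 16 death receptor genes for 7 and 4.

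Most genes of the glycolysis and hypoxia list fell in both lines, and 4 were opposite. Hypoxia-inducible factors drive both the glycolytic enzymes and a set of regulators. Of 38 genes, 6 rose and 22 fell in KMS12-BM, and 1 rose and 33 fell in JJN3. The 4 opposite genes were VEGFA, described above, the MYC antagonist MXI1, the histone demethylase KDM3A and the HIF prolyl hydroxylase EGLN1. KDM3A was at 88.8, 86.3 and 111 CPM and 180.2, 239 and 249 CPM in KMS12-BM, and at 116, 128 and 133 CPM and 85.1, 78.5 and 90.2 CPM in JJN3. MXI1 changed by 0.95 ± 0.09 and -0.38 ± 0.09, and EGLN1 by 0.80 ± 0.09 and -0.25 ± 0.09, a call in both lines that held in 5 of 12 fits without 1 library and not with a GC trend removed (JJN3 adjusted p = 0.0546). PKM, the pyruvate kinase of the last glycolytic step, fell in both lines (-1.28 ± 0.07 and -0.41 ± 0.07). The interaction was higher for 12 and lower for 8 of the 38, with a median of 0.17.

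Mitotic and DNA replication genes differed between the lines in opposite senses. Of 40 mitotic genes tested, 16 rose and 9 fell in KMS12-BM, while in JJN3 none rose and 20 fell. The interaction was higher for 18 and lower for 2, with a median of 0.42. PRC1, TOP2A, CENPE, CENPA, BUB1 and KIF23 rose in KMS12-BM and fell in JJN3, and no gene did the reverse. TOP2A, the topoisomerase that resolves sister chromatids, was at 688, 694 and 765 CPM and 819, 1075 and 1134 CPM in KMS12-BM, and at 834, 898 and 847 CPM and 527, 665 and 600.1 CPM in JJN3. PRC1, which bundles the microtubules of the midzone, changed by 0.94 ± 0.11 and -0.32 ± 0.11, and the centromeric histone CENPA by 0.49 ± 0.11 and -0.41 ± 0.11. HMMR, a spindle protein, rose in KMS12-BM from between 37.8 and 42.01 CPM to between 100.2 and 163 CPM, with 0.08 ± 0.15 in JJN3 (interaction adjusted p = 2.97e-05). CDC25B (-1.93 ± 0.09 and -0.40 ± 0.09) and SPC24 (-2.65 ± 0.11 and -1.06 ± 0.10) fell further in KMS12-BM.

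The opposite mitotic changes were small and depended on single libraries. Of the 6 genes, 2 were left without JJN3 DMSO replicate 2, JJN3 amiloride replicate 1 or JJN3 amiloride replicate 3. TOP2A kept both calls in all 12 such fits, CENPA in 11 and BUB1 in 4. With a GC trend removed, TOP2A, CENPE and BUB1 lost the call in KMS12-BM (adjusted p = 0.0818, 0.376 and 0.184) and PRC1 that in JJN3 (adjusted p = 0.0527). In all, leaving out a library gave 15 to 24 mitotic genes with a higher interaction and a median of 0.34 to 0.52.

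Mitotic genes are known for promoters with a CCAAT box, bound by NF-Y, and a cell-cycle homology region (TTTGAA), bound by the DREAM and MuvB complexes. Of 34 promoters of the mitosis list, 27 held CCAAT and 23 held TTTGAA on either strand (79.4% and 67.6%), against 36.7% and 9.78% of 11210 promoters. These shares, too, describe the list and not the response to amiloride. The promoters of PRC1 (chr15:90994486-90994785, minus strand) and TOP2A (chr17:40417847-40418146, minus strand) are printed as above, with both motifs in capitals. They were picked after the values were seen, as the 2 opposite genes of the list with both motifs and the largest interactions. In PRC1 the motifs begin 53 and 20 bases before the start. In TOP2A, CCAAT matches (read as ATTGG on the reverse strand) begin 244, 160, 93 and 53 bases before it, and TTTGAA matches 194 and 151 bases before it.
PRC1: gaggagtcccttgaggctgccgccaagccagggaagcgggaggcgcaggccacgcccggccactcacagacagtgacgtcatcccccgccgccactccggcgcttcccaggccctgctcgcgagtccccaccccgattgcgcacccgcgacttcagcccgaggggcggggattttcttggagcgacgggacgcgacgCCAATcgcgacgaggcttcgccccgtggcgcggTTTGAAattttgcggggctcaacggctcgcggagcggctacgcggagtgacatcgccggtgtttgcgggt
TOP2A: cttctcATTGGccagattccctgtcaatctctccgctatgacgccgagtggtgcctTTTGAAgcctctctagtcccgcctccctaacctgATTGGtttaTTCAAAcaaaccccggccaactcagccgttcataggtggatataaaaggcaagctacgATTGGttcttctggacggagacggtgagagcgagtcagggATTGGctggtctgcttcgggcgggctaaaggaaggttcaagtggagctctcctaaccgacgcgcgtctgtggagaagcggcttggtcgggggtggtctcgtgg

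DNA replication genes fell in both lines and further in KMS12-BM. Of 39, 30 fell and 1 rose in KMS12-BM and 18 fell and 1 rose in JJN3, and the interaction was lower for 21 and higher for 1 (median -0.66). RRM2, the small subunit of ribonucleotide reductase, was at 247 to 292 CPM and 34.03 to 38.6 CPM in KMS12-BM, and at 851 to 1050 CPM and 391 to 521 CPM in JJN3, with an interaction of -1.90 ± 0.16 (adjusted p = 8.99e-07). The origin firing factor MCM10 and the chromatin assembly factor CHAF1B showed interactions of -1.78 and -1.76. Whether mitotic and replication transcripts moved through the share of cells in each phase or through the RNA per cell cannot be told apart in bulk RNA.

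**Figure D5:**
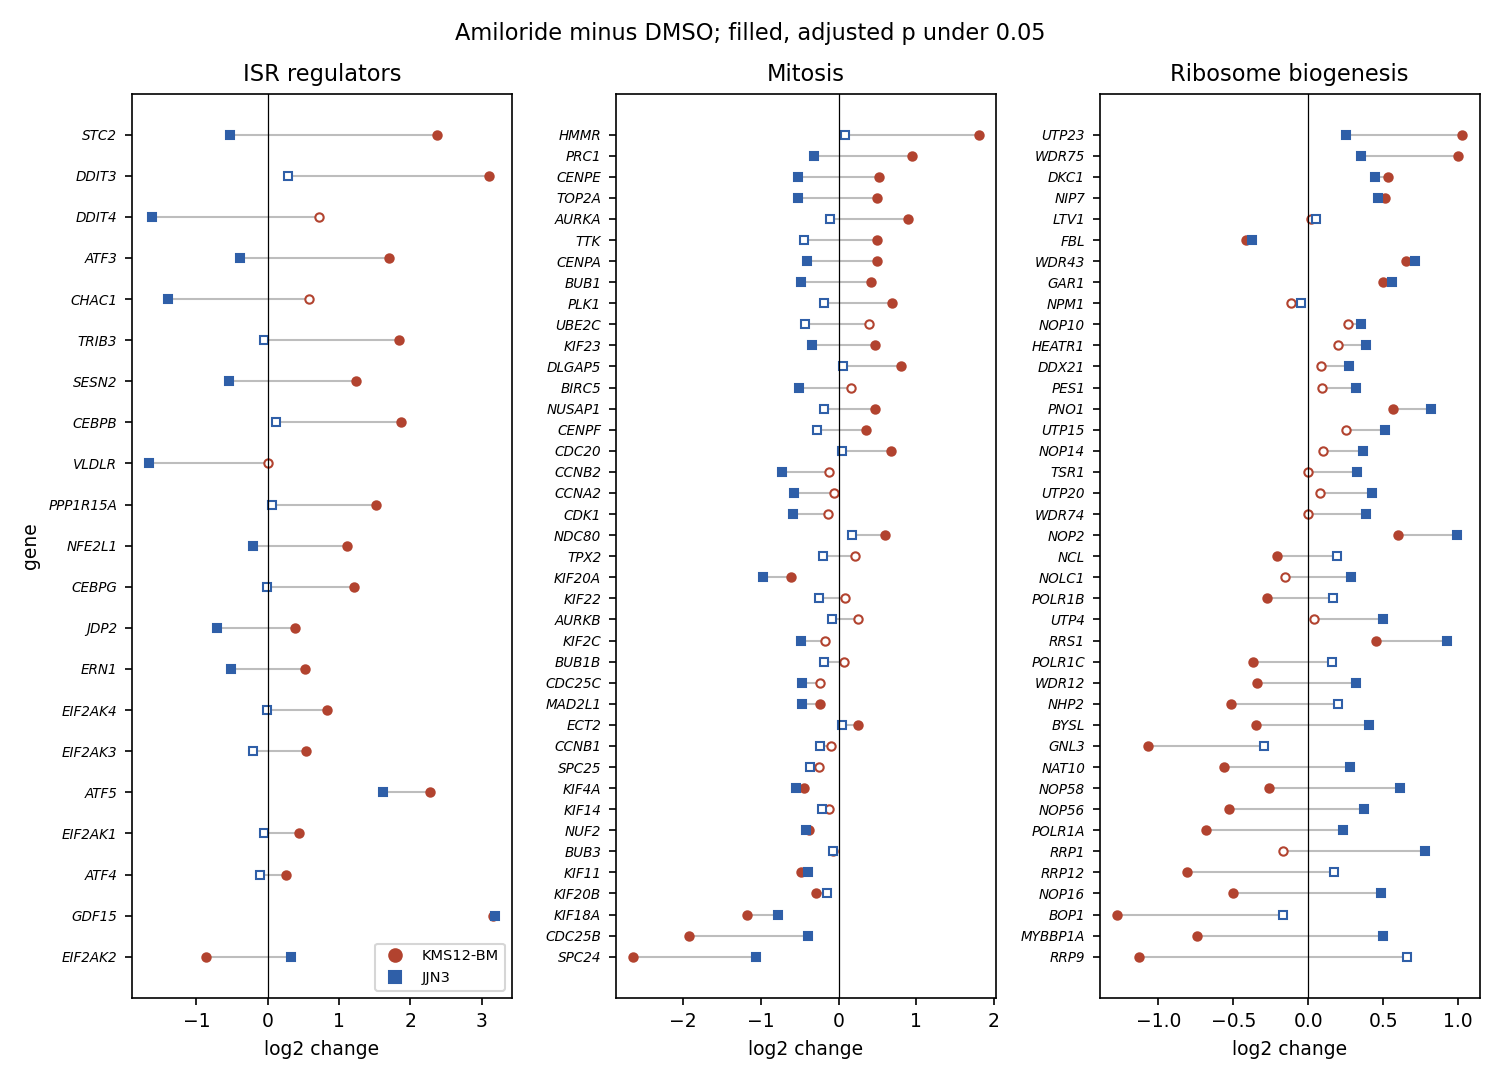
Log2 change with amiloride for each tested member of 3 lists, ordered by interaction, in KMS12-BM (red circles) and JJN3 (blue squares). Filled symbols are called at an adjusted p under 0.05, and the x axes differ. ISR regulators and mitotic genes lie mostly further right in KMS12-BM, and ribosome biogenesis genes mostly further right in JJN3.

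Of the 32 lists, ribosome biogenesis held the most genes that fell in KMS12-BM and rose in JJN3. The list covers RNA polymerase I, the box C/D particle and the assembly factors of both subunits in the nucleolus. Of 40 genes, 9 rose and 17 fell in KMS12-BM, 29 rose and 1 fell in JJN3, and the interaction was higher for 2 and lower for 22 (median -0.40). Opposite calls were made for POLR1A, the large subunit of RNA polymerase I, the box C/D proteins NOP56 and NOP58, the polymerase I cofactor MYBBP1A, the RNA acetyltransferase NAT10, and the assembly factors WDR12, BYSL and NOP16. NOP56 was at 578, 557 and 537 CPM and 398, 361 and 401 CPM in KMS12-BM, and at 671, 625 and 534 CPM and 783, 811 and 779 CPM in JJN3, without overlap. MYBBP1A changed by -0.74 ± 0.12 and 0.50 ± 0.12, POLR1A by -0.68 ± 0.07 and 0.23 ± 0.07, and WDR12 by -0.34 ± 0.08 and 0.32 ± 0.08. UTP23 rose in both lines and more in KMS12-BM (1.03 ± 0.07 and 0.25 ± 0.07). The count of 8 fell to 5 without JJN3 DMSO replicate 3 or JJN3 amiloride replicate 2. NOP56, WDR12 and MYBBP1A kept both calls in all 12 fits. With a GC trend removed, MYBBP1A lost its KMS12-BM call (adjusted p = 0.115), and BYSL changed sign there (0.08, adjusted p = 0.626).

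Most mitochondrially encoded transcripts fell in both lines. Of 15 tested, 12 fell and 3 rose in KMS12-BM (median of the list -4.57), 11 fell and 1 rose in JJN3 (-1.77), and the interaction was lower for 12 and higher for 1. The 3 that rose in KMS12-BM, named after their values were seen, were MT-ND6 and the ribosomal RNAs MT-RNR1 and MT-RNR2. MT-ND6, a complex I subunit, changed by 2.70 ± 0.37 there and also rose in JJN3 (4.03 ± 0.39). Since the strand setting of the counting is not given, reads counted to MT-ND6 may include those of transcripts from the other strand. MT-CO3, a subunit of cytochrome oxidase, was at 7180 to 8056 CPM and 64.99 to 117 CPM in KMS12-BM, and at 1616 to 2153 CPM and 384 to 583 CPM in JJN3. No gene of that list was opposite. Of 43 respiratory chain genes the interaction was lower for 15 and higher for 1 (median -0.36), with ATP5PF, a stalk subunit of ATP synthase, at -0.51 ± 0.14 in KMS12-BM and 0.53 ± 0.14 in JJN3. ATP5PF was no longer opposite without JJN3 DMSO replicate 3, and with a GC trend removed its KMS12-BM call was lost (adjusted p = 0.111). Among 33 genes of mitochondrial gene expression 2 were opposite: SSBP1, which binds single-stranded mitochondrial DNA, was at 317 to 349.5 CPM and 189.8 to 251 CPM in KMS12-BM and 115 to 125 CPM and 142 to 166 CPM in JJN3, and the mitochondrial RNA-binding protein FASTKD2 changed by -0.63 ± 0.12 and 0.49 ± 0.12.

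Protein folding genes of the cytosol and the ER did not share a pattern. HSPA8, the constitutive HSP70, was at 2240, 2540 and 2524 CPM and 1832, 1646 and 1787 CPM in KMS12-BM, and at 3087, 3044 and 2780 CPM and 3839, 4366 and 4048 CPM in JJN3, an opposite change kept in all 12 fits. Its inducible relative HSPA1B kept it in 3 of 12 and changed sign in KMS12-BM with a GC trend removed (0.07, adjusted p = 0.749). HSPA1B is near-identical to HSPA1A, and reads placed at more than 1 site were not counted to a gene, so its level may be undercounted. The interaction was lower for 13 and higher for 5 of 24 cytosolic heat shock genes (median -0.43), and HSP90AA1 fell in KMS12-BM (-0.81 ± 0.08) with -0.04 ± 0.08 in JJN3. In the ER, the interaction was lower for 11 and higher for 9 of 32 genes. HSPA5 (BiP), the main ER chaperone, fell in KMS12-BM from between 1272 and 1416 CPM to between 314 and 327 CPM and in JJN3 from between 684 and 706 CPM to between 592 and 640.1 CPM (interaction -1.89 ± 0.09, adjusted p = 1.35e-08).

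Of the 32 ER genes, 11 rose and 14 fell in KMS12-BM, 5 rose and 15 fell in JJN3, and SEL1L, HERPUD1 and XBP1 rose in KMS12-BM and fell in JJN3. SEL1L, the adaptor of the HRD1 ligase, was at 235 to 246 CPM and 316 to 381 CPM there and at 171 to 185 CPM and 107 to 144 CPM in JJN3. HERPUD1, a partner of the same ligase, changed by 0.53 ± 0.09 and -0.29 ± 0.09, and XBP1, the transcription factor of plasma cells and of the unfolded protein response, by 0.76 ± 0.10 and -0.31 ± 0.10. EDEM1, which sends glycoproteins to degradation, rose in KMS12-BM (1.49 ± 0.09) with 0.16 ± 0.09 in JJN3 (adjusted p = 0.17). SEL1L kept both calls in all 12 fits without 1 library. The count of 3 fell to 1 without JJN3 DMSO replicate 3 or JJN3 amiloride replicate 3.

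In the redox and sterol lists the interaction was more often lower than higher. Of 26 NRF2 and oxidative stress genes, the interaction was lower for 11 and higher for 3 (median -0.37). The thioredoxin reductase TXNRD1 fell in KMS12-BM (-1.11 ± 0.08) with 0.10 ± 0.08 in JJN3, and PIR fell in both (-4.18 ± 0.24 and -0.93 ± 0.20). FTH1, the ferritin heavy chain, was opposite in the sense of SLC7A11, with 0.29 ± 0.12 and -0.44 ± 0.12, in 6 of 12 fits without 1 library. The list thus held opposite genes of both senses, NQO1 against SLC7A11 and FTH1. Of 27 cholesterol synthesis genes, 25 fell in KMS12-BM and 20 in JJN3, and the interaction was lower for 16 and higher for 3 (median -0.50). PMVK, the phosphomevalonate kinase, was the only opposite gene, and with a GC trend removed its KMS12-BM change became 0.19 (adjusted p = 0.0729).

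Of 50 core spliceosome genes, 23 rose and 11 fell in KMS12-BM and 26 rose and none fell in JJN3, with PRPF8 and DHX38 opposite in 4 and 8 of 12 fits without 1 library. With a GC trend removed their KMS12-BM changes were -0.01 (adjusted p = 0.936) and 0.18 (adjusted p = 0.112). PRPF38B rose in both (2.001 ± 0.08 and 0.57 ± 0.08). Of 21 SR proteins, 10 rose and 5 fell in KMS12-BM, and 8 rose and 1 fell in JJN3. Their interaction was higher for 8 and lower for 5 (median 0.16). Against this run, SRSF3 fell in KMS12-BM from between 632 and 680.2 CPM to between 330.5 and 360.4 CPM, with 0.06 ± 0.09 in JJN3 (interaction adjusted p = 2.03e-05). SRSF5 moved in opposite ways (-0.27 ± 0.09 and 0.40 ± 0.09), in 8 of 12 fits without 1 library. SR protein kinases rose more in KMS12-BM: the interaction was higher for 8 and lower for 2 of 14, with CLK3 at 1.76 ± 0.11 and 0.39 ± 0.11. Of 15 nonsense-mediated decay genes, 8 rose and 2 fell in KMS12-BM, and the interaction was higher for 5 and lower for 1. SMG5, the only opposite gene of that list, was at 145 to 157 CPM and 98.01 to 119.5 CPM in KMS12-BM. In JJN3 it was at 254 to 284 CPM and 377 to 395 CPM. With a GC trend removed its KMS12-BM change was -0.01 (adjusted p = 0.932).

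Among 32 genes of amiloride-sensitive transport and volume regulation, the interaction was lower for 12 and higher for 6, and 2 genes were opposite. SLC12A7, a potassium-chloride cotransporter, changed by 0.37 ± 0.11 and -0.38 ± 0.12, in 8 of 12 fits without 1 library, and lost its JJN3 call with a GC trend removed (adjusted p = 0.056). ASIC1, an acid-sensing channel that amiloride blocks, fell in both (-3.09 ± 0.22 and -0.89 ± 0.21). Of 24 interferon genes, 7 rose and 5 fell in KMS12-BM, and 8 rose and 1 fell in JJN3. Their interaction was higher for 7 and lower for 6. Its median was -0.44, and 0.19 without KMS12-BM DMSO replicate 1. IRF1, an interferon-induced factor, rose in KMS12-BM (1.32 ± 0.14) and fell in JJN3 (-0.37 ± 0.13) in 7 of 12 fits. IRF1 lost its JJN3 call with a GC trend removed (adjusted p = 0.0772). IFIH1, a sensor of viral RNA, rose in both (2.002 ± 0.12 and 0.39 ± 0.11). No gene of the lysosome list was opposite, and CTSZ, a cathepsin, rose in JJN3 alone (1.79 ± 0.12, against -0.00017 ± 0.11 in KMS12-BM).

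Most tested genes of the replication-dependent histone list rose in each line, and few plasma cell genes were opposite. RNA was selected for poly(A) tails, so histone transcripts without such tails would be missed or undercounted. Among 14 histone genes, 10 rose and 1 fell in KMS12-BM and 8 rose in JJN3, with H4C8 at 1.89 to 3.32 CPM and 50.8 to 56.6 CPM in KMS12-BM and 4.57 to 4.91 CPM and 10.4 to 13.8 CPM in JJN3. Of 26 plasma cell factors and surface markers, the interaction was higher for 6 and lower for 6. The repressor BACH2 rose in KMS12-BM from between 7.87 and 8.99 CPM to between 58.5 and 88.2 CPM, with 0.12 ± 0.14 in JJN3, and SDC1 fell there (-2.39 ± 0.10) with -0.18 ± 0.08 in JJN3. CRBN, the target of the immunomodulatory drugs, rose in both lines (1.46 ± 0.09 and 0.26 ± 0.10, interaction adjusted p = 8.14e-06).

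The 2 opposite sets also differed in features other than their changes. Of the 302 genes, 276 code for proteins, 14 are pseudogenes and 11 long noncoding RNAs, and of the 327 these were 277, 9 and 27. Among all tested genes 74.7% are coding, 11.7% pseudogenes and 10.5% long noncoding RNAs. These shares are not a like comparison, since calls in both lines need enough reads. A mean of at least 5 CPM was held by 88.7% and 80.7% of the 2 sets, against 64.8% of all tested genes. The coding genes that rose in KMS12-BM and fell in JJN3 had a median transcript GC content of 42.5% and a median length of 4668 bases. Those with exchanged signs had 52.96% and 3744 bases, and all tested coding genes had 47.9% and 3857 bases. Genes that rose in both lines had a median GC of 44.05% and genes that fell in both 53.05%, so GC content followed the KMS12-BM direction in both classes. With a GC trend removed per library, 441 of the 629 genes kept both calls. The estimate changed sign in KMS12-BM for 48 genes and in JJN3 for none.

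The 3 motifs were also searched in the promoters of all opposite genes, with the shares over all promoters as given above. TGATGNAA was in 7 of 228 promoters of genes that rose in KMS12-BM and fell in JJN3 (3.07%) and in 2 of 240 of the reverse set (0.833%). CCAAT was in 42.5% and 40.8%. TTTGAA was in 15.8% and 9.58%. On the chromosomes, 2.61% to 5.07% of the tested genes on the other autosomes were opposite, with 2.03% and 2.30% on chromosomes 13 and 14. The X chromosome had 1.96%. Chromosome 13, named after all were seen, held 6 genes higher in KMS12-BM and lower in JJN3 and 0 of the reverse kind among 295 tested. Other chromosomes were uneven either way, with 17 and 6 on chromosome 4 and 13 and 30 on chromosome 17. Of the 629 opposite genes, which each need a call in both lines, 17 had under 30 reads over the 6 libraries of KMS12-BM (2.70%, against 9.10% of all tested genes) and 11 over those of JJN3 (1.75%, against 7.48%).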

How the data were processed

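Per the submitters' processing notes, reads were trimmed with cutadapt 1.4, aligned to hg19 with TopHat2 2.0.11 and counted with HTSeq 0.6.1p1. DESeq2 1.12.4 is named too. The sources used here name no annotation or strand setting for the counting. The deposited values are raw read counts per Ensembl gene and library. The deposited normalized tables and the 6 TG003 libraries were not used. In the latter, 7.79% to 9.12% of records were placed at more than 1 site, against 13.3% to 17.4% in the 12 used. Symbols and GRCh37 coordinates were found for 43521 and 55538 of 57905 identifiers.

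The counts were fitted with edgeR 4.0.16 in R 4.3.3: filterByExpr, TMM scaling, 1 mean per group, robust quasi-likelihood tests of each line's change and of the interaction, with Benjamini-Hochberg adjustment over all genes. A standard error is the log2 change divided by the square root of F, an approximation. The fit was tested on simulated data. Replicates of a group differed by 13.2 to 32.1 times sampling noise (chi-square per degree of freedom), so none was a duplicate.

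Named were the 12 largest opposite changes per direction (as described in the report), the 5 largest called interactions each way at a mean of at least 5 CPM, of each list the 4 members with the smallest interaction p and all opposite ones, and the promoters of opposite ISR genes with TGATGNAA. The members, lists and rules were chosen with earlier results of these data known. Alternatives were 2 other scalings, 2 other filters, DESeq2 1.42.0, limma 3.58.1 (voom), all 18 libraries, each line alone, a replicate block, removal of mitochondrial genes, of pseudogenes or of a GC trend, each library left out, an adjusted p under 0.01 and a minimum of 1.5-fold. Some genes that the rules name are not reported here.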

Additional observations from a re-analysis of the deposited data

Results flagged for a closer look

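The results here differed between the lines under the same contrast. The interaction was called higher for 3513 genes and lower for 3696. Groups of 3 libraries are too small to look for a sample that stands apart from the others.

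Among called genes with a symbol and a mean of at least 5 CPM, the interaction was highest for GPAT3 (9.16), CYTL1 (5.84), NPC1L1 (5.71), HSPA12A (5.68) and TP73 (4.71). It was lowest for TMEM37 (-5.96), SPI1 (-5.11), RPP25 (-4.96), SLA2 (-4.76) and DISP2 (-4.68). For GPAT3, CYTL1, HSPA12A, TP73 and SPI1 a group had 0 or 1 read, so these estimates depend on the prior count and are no bounds. Each interaction was tested, but those of genes called in opposite directions follow from that choice.

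Genes that rose in KMS12-BM and fell in JJN3 had interactions of 3.02 (ASS1), 3.25 (CTH), 2.94 (NRN1), 3.84 (HCP5), 4.12 (FAM172BP), 2.10 (VEGFA), 2.17 (SLC7A11), 2.54 (C1R), 2.23 (ZFP69B) and 2.54 (CCNG2). Genes that fell in KMS12-BM and rose in JJN3 had -3.07 (CYP1A1), -2.44 (IPO5P1), -2.02 (ACY3), -2.64 (ATP6V0E2-AS1), -2.14 (NQO1), -2.72 (CDH8), -1.97 (EME2), -1.68 (TPCN1), -2.23 (DHRS1) and -1.82 (RBMS1P1).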

How the results depend on the processing

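The interaction counts stayed within 1.5 times 3513 and 3696 under each alternative, and the interaction of no named gene reversed. At an adjusted p under 0.01, 124 genes rose in KMS12-BM and fell in JJN3 and 122 did the reverse, while 1079 rose and 1112 fell in both. With at least 1.5-fold in each line these counts were 76, 91, 633 and 896. Leaving out 1 library gave 194 to 345 and 196 to 373 opposite genes, 1400 to 1873 that rose in both and 1491 to 1942 that fell in both, and 3089 to 3665 and 3320 to 3893 interactions. The opposite counts were 272 and 340 with median-of-ratios scaling, 280 and 368 with upper-quartile scaling, and 305 and 344 with DESeq2. For the interactions of 180 named genes under all alternatives, 4117 estimates kept their side of the threshold, 9 lost the call and 4 gained it. Of those lost, 7 were lost with a GC trend removed: PRPF8, DHX38, HSPA1B, PMVK, COX8A, BYSL and MZB1. The cause was not tested.

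Library numbers in the titles run in 3 sets. Within a line, the correlation of same-set deviations was -0.03 to 0.11 over 6 pairs and over 0.1 in 1. For libraries of other sets in the same line it was -0.118 to 0.097 over 12 pairs. These correlations are weak, and whether the set pairs the samples cannot be told from them. With the set as a replicate block, the interaction was higher for 3540 and lower for 3664 genes, opposite calls numbered 309 and 321, and 1792 genes rose and 1828 fell in both lines. Depth limits genes with few reads in 1 line, whose change there was seldom called. Amiloride differed in dose between the lines, and the interaction was not tested at a common dose.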
